A study of Mus musculus with 4 samples.

Results

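The cells described here were stromal cells of mouse hind limb muscle named for transcripts of Inmt, Rbp4 and Gdf10, though a cell did not need to carry all of them. A cell was a member if it held at least 3 of the 7 panel genes Inmt, Rbp4, Gdf10, C7, Osr1, Cpz and Sfrp4, if the panel made up at least 0.1% of its UMIs (unique molecular identifiers, each standing for 1 captured transcript), and if it held fewer than 4 genes of each of a pair of excluding lists. The first excluding list was Myoc, Fst, Cyp2f2, Frmpd4, Scara3, Penk and Colec12, and the second was Pi16, Adgrd1, Sbsn, Ptx3, Smpd3, Has1 and Efemp1. The rule found 643 members among 18153 cells, which were the barcodes with more than 200 detected genes and less than 10% mitochondrial UMIs. They comprised 222 cells of the WT GFP+ library, 322 of the Sod1KO GFP+ library, 6 of the WT GFP- library and 93 of the Sod1KO GFP- library.

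Fibroblasts of skeletal muscle lie between the fibers and around vessels and nerves, where they build the extracellular matrix and secrete factors that act on fibers, satellite cells and immune cells. Muscle holds several fibroblast populations, among them Pi16-positive cells that resemble adventitial fibroblasts of other tissues and cells that sit in the interstitium close to the fibers. Among the panel genes, Inmt encodes an indolethylamine N-methyltransferase, Rbp4 the carrier of retinol in blood, Gdf10 a secreted ligand of the TGF-beta superfamily, C7 a component of the complement membrane attack complex, Osr1 a zinc finger transcription factor of limb connective tissue, Cpz a secreted carboxypeptidase that binds Wnt proteins, and Sfrp4 a secreted inhibitor of Wnt signaling.

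All mice were 2 months old and carried S100GFP-tg, a reporter in which the S100B promoter drives GFP and so labels Schwann cells. WT mice carried the reporter alone, and mice labelled Sod1KO (Sod1-/-) carried it together with a knockout of Sod1, the cytosolic superoxide dismutase. The tibialis anterior and gastrocnemius muscles of 4 mice were pooled per genotype and digested, and live cells were sorted into a GFP+ and a GFP- fraction, which gave 1 droplet library each. With 1 library per group there was no replicate, so no comparison below has a test or a p-value across animals, and all intervals are 95% intervals that cover counting error only. Both sorts of a genotype came from the same pool of mice, and genotype, pool and library cannot be told apart. Members in a GFP+ library were sorted with that fraction, and GFP transcripts were not measured. The number of cells of a type in a sort and the RNA each of them gave both depend on digestion, gate and capture.

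Members were shallow. In what follows, the libraries come in the order WT GFP+, Sod1KO GFP+, then WT GFP-, then Sod1KO GFP- where no library is named. The median member held 4204 UMIs (WT) and 4202.5 (Sod1KO) in GFP+ and 9747 (WT) and 4391 (Sod1KO) in GFP-, against 13122, 13644, 8275 and 15273 UMIs over all cells of the same libraries. The ratio of the median of members to the median of all cells was thus 0.320, 0.308, 1.18 and 0.288. The cells that the excluding lists left out were deeper. Of 1010 cells that passed the panel part of the rule, 222 were left out by the first list alone, 55 by the second alone and 90 by both, and their median depth was 17715, 13663, 15371 and 16819.5 UMIs in the same order of libraries. The WT GFP- library held only 6 members with 58703 UMIs in all, against 1329025, 2000032 and 546535 in WT GFP+, Sod1KO GFP+ and Sod1KO GFP-, so each value from it rests on very few cells.

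Members carried fibroblast markers, and some also carried markers of other cells. All 643 members had at least 3 of the fibroblast markers Pdgfra, Col1a1, Col3a1, Dcn, Lum and Dpt, and 507 had at least 5 of these 6. UMIs of these abundant genes were found in other cells too. Of endothelial cells, those with at least 4 of 6 endothelial markers, 23.4%, 33.9%, 20.5% and 14.5% also held at least 3. The source of these UMIs was not tested. After each cell had been thinned to 1000 UMIs, the shares with at least 3 were 99.5%, 100%, 83.3% and 98.9% of members and 2.72%, 3.34%, 9.45% and 1.90% of endothelial cells. At least 3 of 6 markers of another cell type were present in 85 members, 18 (WT) and 56 (Sod1KO) in GFP+ and 2 (WT) and 9 (Sod1KO) in GFP-. Mural markers were the most frequent, in 5, 30, 2 and 7 members, followed by tenocyte markers in 12, 13, 2 and 1 and Schwann markers in 3, 10, 0 and 0. The summed level of the 6 mural markers in members was 204 (WT) and 667 (Sod1KO) in GFP+ and 2947 (WT) and 556 (Sod1KO) in GFP-, in counts per 1000000 UMIs (CPM). A doublet score built from simulated doublets called 5, 16, 0 and 4 members, and these cells were kept in the main values and left out in an alternative. No barcode was a member in more than 1 library, and pairs of libraries shared 0 to 10 cell barcodes in all.

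Sod1 itself did not separate the genotypes in these cells. Its level in members was 105 CPM (WT) and 106 (Sod1KO) in GFP+ and 85.2 (WT) and 108 (Sod1KO) in GFP-. In the GFP+ sort the log2 ratio, taken as the library labelled Sod1KO over WT unless stated, was 0.03 (-0.29 to 0.34). The reads tag the 3' end of transcripts, and whether the deleted part of the gene lies there was not given in the sources read, so this level does not check the labels.

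The rule is a threshold on measured values, and cells lay close to it on both sides. Exactly 3 panel genes were present in 153 members, exactly 2 were present in 151 cells that met the rest of the rule, and all 7 were present in 47 members. The panel made up between 0.1% and 0.12% of UMIs in 10 members, and between 0.08% and 0.1% in 7 cells just outside. The median panel share of a member was 0.467% of UMIs (WT) and 0.410% (Sod1KO) in GFP+ and 0.337% (WT) and 0.365% (Sod1KO) in GFP-.

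In GFP+, members made up 4.66% of cells in WT (4.08 to 5.29) and 5.12% in Sod1KO (4.59 to 5.69). In GFP- they made up 0.360% in WT (0.132 to 0.783) and 1.71% in Sod1KO (1.38 to 2.09). Shares were thus higher in both GFP+ libraries than in both GFP- libraries, and the sort itself can set them. Within the GFP+ sort the library labelled Sod1KO was 0.461 percentage points higher (-0.358 to 1.26), a difference whose interval includes 0. Within the GFP- sort it was 1.35 points higher (0.826 to 1.78). As comparison groups, cells with at least 4 genes of the first excluding list (Myoc group) or of the second (Pi16 group) were taken by the mirror image of the rule, with 183, 273, 41 and 397 cells in the Myoc group and 47, 93, 27 and 66 in the Pi16 group. Of the cells in these 3 stromal groups, members were 49.1% (WT) and 46.8% (Sod1KO) in GFP+ and 8.11% (WT) and 16.7% (Sod1KO) in GFP-. The difference between genotypes among stromal groups was -2.31 points (-8.21 to 3.60) in GFP+ and 8.62 points (-0.329 to 14.1) in GFP-, and both intervals include 0. With cells carrying markers of another type left out of all 3 groups, the GFP+ difference was -11.8 points.

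The panel genes were above the comparison groups in most libraries, with exceptions among the 6 cells of WT GFP-. The rule used these genes, so the values are a description. In members, Rbp4 reached 847 CPM (WT) and 917 (Sod1KO) in GFP+ and 1005 (WT) and 1674 (Sod1KO) in GFP-. It was lower in every comparison group, at 66.9 to 130 CPM in the Myoc group and 24.1 to 72.4 in the Pi16 group. Gdf10 stood at 768, 862, 579 and 633 CPM in the same order of libraries, and Sfrp4 at 1010, 1126, 664 and 853 CPM. Inmt was at 798 CPM (WT) and 566 (Sod1KO) in GFP+ and 238 (WT) and 576 (Sod1KO) in GFP-. In the 6 cells of WT GFP- Inmt lay below the 384 CPM of the Myoc group of that library, so the panel did not set members apart gene by gene there. C7 ranged from 238 to 559 CPM, Osr1 from 187 to 283 and Cpz from 115 to 221. These levels are CPM of 3' tags, which are not scaled by transcript length, and are compared between libraries rather than between genes.

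Members were chosen for panel transcripts, and the part of each gene's UMIs that they held differed between the genes. In WT GFP+, members held 49.6% of all Rbp4 UMIs, 42.6% of Inmt, 40.8% of Gdf10 and 38.4% of Osr1. In Sod1KO GFP+ the shares were 54.5%, 39.1%, 42.9% and 38.1%. The shares of C7 were 30.7% and 36.2% in these libraries, those of Sfrp4 29.1% and 31.7%, and Cpz had the lowest, at most 13.2%. Members of Sod1KO GFP- held 47.3% of Rbp4 UMIs but 15.6% of Gdf10 and 22.6% of Inmt.

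Free RNA in droplets can put UMIs of a gene into cells that do not express it, so shares of cells with a UMI were set against endothelial cells, which should lack these genes, after each cell had been thinned to 1000 UMIs. Endothelial cells were those with at least 4 of the 6 markers Pecam1, Cdh5, Kdr, Flt1, Cldn5 and Emcn. Rbp4 was detected in 58.3% (WT) and 45.3% (Sod1KO) of GFP+ members and in 50.0% (WT) and 55.1% (Sod1KO) of GFP- members, against 0.509%, 0%, 0.159% and 0.187% of endothelial cells. In the endothelial cells of Sod1KO GFP+, 0 of 598 cells allows a share of up to 0.502% (3 cells of the total). Before thinning, Rbp4 was detected in 84.7%, 78.9%, 100% and 80.6% of members and in 4.41%, 2.00%, 2.44% and 1.36% of endothelial cells, whose median depth of 16574, 15331, 9104 and 15777.5 UMIs was greater than that of members in 3 of the 4 libraries. Inmt was detected after thinning in 49.5%, 33.2%, 16.7% and 33.7% of members, and in 0.170%, 0.334%, 0.238% and 0.0933% of endothelial cells. Members thus lay above endothelial cells for both genes in every library, as the rule fixes. Thinning left out 16, 24, 0 and 4 members that held fewer than 1000 UMIs.

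**Figure D1:**
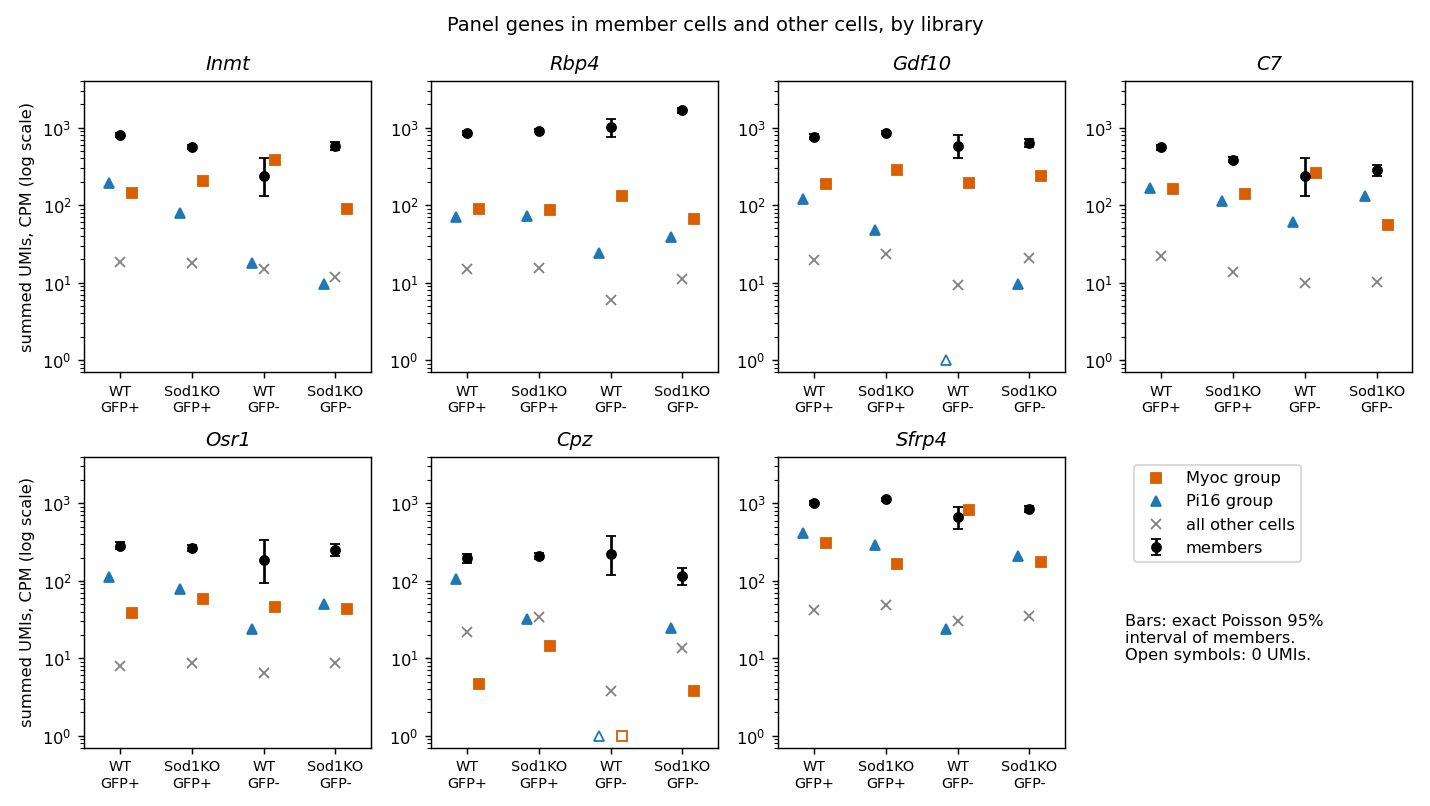
Level of each of the 7 panel genes in members, in the Myoc group, in the Pi16 group and in all other cells, in CPM on a log axis, with 1 point per library and 95% Poisson intervals for members (open symbols mark 0 UMIs). Members lie above the other cells for every panel gene in every library, and above the Myoc group except for Inmt, C7 and Sfrp4 in WT GFP-.

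To give each panel gene in cells that it did not help to choose, members were chosen again by the other 6 panel genes. Between the GFP+ libraries, Inmt was then at 753 CPM (WT) and 558 CPM (Sod1KO), a log2 ratio of -0.43 (-0.56 to -0.30). C7 was at 508 and 373 CPM, a log2 ratio of -0.44 (-0.60 to -0.29). Sfrp4 was at 804 and 1034 CPM, a log2 ratio of 0.36 (0.25 to 0.48). In this sort Inmt and C7 were thus lower and Sfrp4 higher in the library labelled Sod1KO, each by less than 2-fold. Gdf10 (0.16), Rbp4 (-0.08), Osr1 (-0.06) and Cpz (0.04) had ratios closer to 0, and the intervals of the last 3 include 0. In GFP-, with 3 to 6 WT cells, Inmt lay the other way, at 235 CPM (13 UMIs) in WT and 546 CPM in Sod1KO, a log2 ratio of 1.21 (0.42 to 2.14). Sfrp4 was at 2.22 (0.35 to 5.28) there with 2 WT UMIs, Cpz at -1.08 (-1.97 to -0.08) and C7 at 0.13 (-0.75 to 1.17). Rbp4 was at -0.52 (-0.92 to -0.09) in these cells, while over the members by the full rule its GFP- ratio was 0.74. The WT side was 3 cells with 53 Rbp4 UMIs (2298 CPM) in the former and 6 cells with 59 UMIs (1005 CPM) in the latter. The Sod1KO side was at 1603 and 1674 CPM. Why the direction differed was not tested.

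The panel genes lie on different chromosomes. On GRCm39 (GENCODE vM39), Inmt spans chr6:55147606-55152028 on the minus strand, Rbp4 chr19:38105066-38113754 on the minus strand, Gdf10 chr14:33645273-33659940 on the plus strand, C7 chr15:5017233-5093252 on the minus strand, Osr1 chr12:9538061-9631513 on the plus strand, Cpz chr5:35658166-35683049 on the minus strand and Sfrp4 chr13:19807274-19817164 on the plus strand. The counts were taken per gene, and 3' tags do not separate exons or isoforms.

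Compared with the Myoc and Pi16 groups of the same library, members had higher CPM of Mlana, Gpnmb, Acp5, Ccl19, Mmp3 and Timp1. The same held for 5 antioxidant genes and for Col1a1, Eln and Sparc, while Plxdc2, Lamb1, Itih5 and Pcdh7 had lower CPM. CPM is a share of UMIs and not a number of transcripts per cell. Cells of the Myoc group were deeper than members, at medians of 17310, 13324, 13376 and 14759 UMIs. The cells were chosen by their readout, so these within-library ratios are a description. A gene counted as higher if it was at least 2-fold higher than both groups in every library, which held for 19 of 1965 genes measured (0.967%), and as lower by the same rule, which held for 22 of 2048 (1.07%). In the 3 libraries with more than 50 members, 72 of 2876 genes (2.5%) were higher and 94 (3.27%) were lower. These 2876 genes reached 50 CPM in members or in both groups, while the 1965 and 2048 reached it on the higher side. Counted on the higher side alone, the 3 libraries gave 72 of 2313 genes higher and 94 of 2430 lower.

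Mlana, which encodes a melanosome protein, stood furthest apart. Its level in members was 114 CPM (WT) and 108 (Sod1KO) in GFP+ and 170 (WT) and 97.0 (Sod1KO) in GFP-. The highest value in any comparison group was 3.42 CPM, in the Pi16 group of Sod1KO GFP+. Mlana was detected in 60 members of WT GFP+, 103 of Sod1KO GFP+ and 23 of Sod1KO GFP-. Gpnmb, which encodes a glycoprotein of lysosomes and melanosomes, was at 223, 185, 324 and 124 CPM in members and at most 40.7 CPM in the groups. Acp5, the tartrate-resistant acid phosphatase, was at 100, 148, 85.2 and 84.2 CPM against at most 30.6. Members were higher for each of these genes in all 4 libraries, which follows from the rule that named them.

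Ccl19, a chemokine that attracts cells with the receptor CCR7, was at 188, 175, 102 and 121 CPM in members and at most 42.0 CPM in the groups. Mmp3, the matrix metalloproteinase stromelysin-1, was at 242, 234, 136 and 214 CPM against at most 58.7. Timp1, an inhibitor of metalloproteinases, was at 211, 330, 102 and 245 CPM against at most 84.2. The lowest of the 4 member values lay above the highest group value for each of these genes. They were named for their ratios to both groups, so the lack of overlap is a description. Pltp, the phospholipid transfer protein, was at 156, 149, 256 and 199 CPM against at most 84.4. Pdgfrl, a gene related to the PDGF receptors, was at 398, 378, 307 and 591 CPM against at most 76.5. Tspan11, a tetraspanin, and Clec11a, a secreted growth factor of the bone marrow stroma, were 1.85 and 1.25 log2 units or more above each group in every library.

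**Figure D2:**
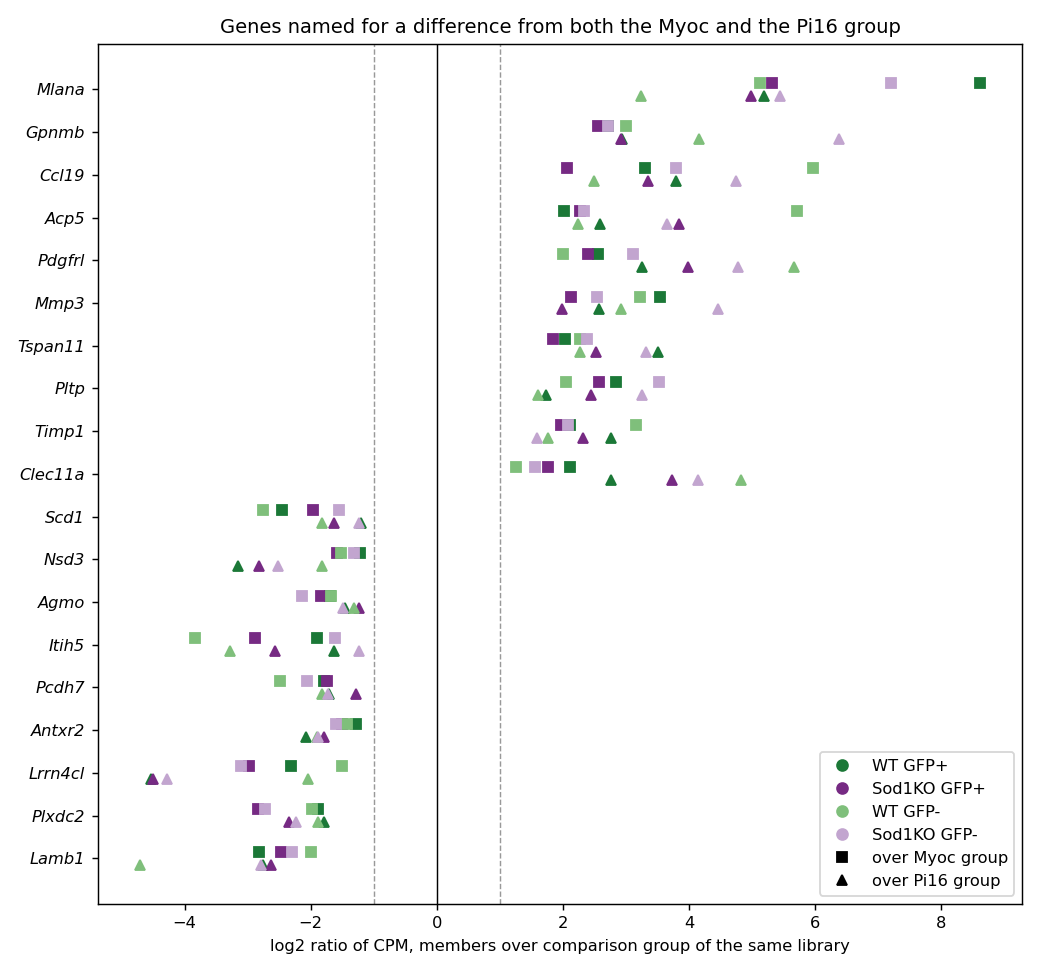
Log2 ratio of members over the Myoc group and over the Pi16 group within each library, for 19 genes named for a uniform difference (10 higher, 9 lower), with 1 point per library and group and with sums of 0 set to 3 UMIs. The 10 higher genes lie at 1.25 or more and the 9 lower genes at -1.20 or less in every library.

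The lower genes were led by Plxdc2, a membrane receptor. It was at 172, 117, 153 and 183 CPM in members, against 602 to 1208 CPM in the Myoc group and 567 to 858 CPM in the Pi16 group. Lamb1, the laminin beta 1 chain of basement membranes, was at 24.8, 31.5, 17.0 and 40.3 CPM in members and at least 68.3 CPM in the groups. Itih5, a hyaluronan-binding heavy chain, was at 152, 90.5, 51.1 and 284 CPM against at least 470. Members were lower for these genes in every library, which also follows from the rule that named them. Antxr2, a receptor for collagen IV and laminin, and Pcdh7, a protocadherin, were both -1.28 log2 units or less relative to each group in every library, and Lrrn4cl, Nsd3, Agmo and Scd1 were named by the same rule. Members had a smaller part of their UMIs from genes that span more than 100 kb, at 8.45%, 9.01%, 6.75% and 8.77%, against 10.7% to 15.4% in the Myoc group and 12.7% to 17.0% in the Pi16 group. The part of this shift and of depth in the lower genes was not tested.

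Gene lists were read in the 3 libraries with more than 50 members, by how many measured members of a list lay 2-fold or more from both groups, beside 2.5% higher and 3.27% lower over all genes. Of 24 antioxidant genes measured, 5 were higher (20.8%) and 0 lower. They were Gpx7 and Gpx8, glutathione peroxidases of the endoplasmic reticulum, Prdx4, a peroxiredoxin of the same compartment, Gstm2, a glutathione transferase, and Selenow, a small selenoprotein. Gpx8, for example, was at 308 CPM in WT GFP+, 355 in Sod1KO GFP+ and 435 in Sod1KO GFP-, against 91.1 to 137 CPM in the groups of these libraries. Gpx7 was at 169, 179 and 166 CPM against 66.7 to 81.5. In the 6 cells of WT GFP-, Gstm2 lay the other way, at 102 CPM in members and 182 in the Myoc group.

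Of 20 protease and inhibitor genes measured, 4 were higher (Mmp3, Timp1, Ctsk and Cpxm1) and Serpine2 was lower. Ctsk, the collagen-degrading cathepsin K, was at 749, 616, 1465 and 629 CPM in members against at most 275 in the groups. Of 30 proteoglycan and elastic matrix genes, Eln, Mfap4 and Sparc were higher, and Vcan and Lamb1 were lower. Eln, the core of elastic fibers, was at 944 CPM (WT) and 985 (Sod1KO) in GFP+ and 494 (WT) and 1464 (Sod1KO) in GFP-, against at most 359 in the groups. Sparc, a collagen-binding protein, was at 23962, 22687, 12912 and 18385 CPM, against at most 10607. Of 15 collagens, Col1a1 alone was 2-fold higher, at 16883, 14320, 14412 and 9246 CPM against at most 6585.

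Apoe, a lipid carrier, was at 1608, 1804, 3322 and 617 CPM in members against at most 824 CPM in the groups. Its level was lowest in Sod1KO GFP-, where the groups stood at 164 and 71.7 CPM. Of 10 adipogenic and lipid genes, Ebf2, a transcription factor of adipocyte precursors, and Scd1, a fatty acid desaturase, were lower. Id3, a target of BMP signaling, was higher and Tgfb2, a TGF-beta ligand, was lower among 14 BMP and TGF-beta genes. C2 of the complement genes, Igfbp7 of the IGF genes, Epha3 of the guidance genes and Gata6 of the transcription factors were higher, and Dkk2 of the Wnt genes and Iigp1 of the interferon genes were lower. None of 20 immediate early and heat shock genes, 12 growth factor genes or 9 glucocorticoid-responsive genes differed 2-fold from both groups. Over all genes measured, 2.5% were higher and 3.27% lower.

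These comparisons depend on depth. With all 3 groups chosen after thinning to 2000 UMIs per cell, 12 genes were higher and 5 lower in every library. With cells carrying markers of another type left out of all groups, 32 were higher and 35 lower. Of the genes named, Mlana, Gpnmb, Mmp3, Pltp, Tspan11 and Plxdc2 stayed 2-fold or more from both groups in every library under all 5 alternatives. Ccl19, Timp1, Pdgfrl, Clec11a, Lamb1, Itih5, Pcdh7 and Antxr2 did so under 4 of 5. Acp5 and Nsd3 did so under 3 of 5, and Agmo, Lrrn4cl and Scd1 under 3 of 4. The log2 ratio came as near to 0 as 0.57 for Ccl19, 0.80 for Timp1 and -0.76 for Lamb1. For Itih5 and Pcdh7 it came to -0.92 and -0.17.

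Members were not uniform among themselves. Clustering of the 643 members gave 5 clusters, which are described by their leading genes and are not named as cell types. The same counts made the clusters and chose the genes, so these values are a description. Cluster 1 (238 cells, median 6769.5 UMIs) was led by the complement genes C4b and C3 and by Thsd7a, Arhgap24 and Sfrp1. C3 was at 589.5 CPM there and at 82.1 CPM in the other members. Cluster 2 (154 cells, median 2887 UMIs) was led by Spink2, Timp1 and Hhip, an antagonist of hedgehog signaling, and held 656 CPM of Timp1 against 216 CPM in the other members. Cluster 3 (120 cells, median 1141 UMIs) was led by 2310009A05Rik, Polr2k, an RNA polymerase subunit, and H2afz, a histone, and was the shallowest.

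Cluster 4 (97 cells, median 5966 UMIs) was led by Col4a3 and Col4a4, basement membrane collagen chains, and by Colec11, Egflam and Ccn2. Col4a3 was at 263 CPM in this cluster and at 18.1 CPM in the other members, and it was detected in 64.9% of its cells. Cluster 5 (34 cells, median 11194.5 UMIs) was led by Chad, Col12a1, Cilp2 and Tnmd, of which Tnmd encodes tenomodulin of tendon. In this cluster 26 of 34 cells held at least 3 of 6 tenocyte markers, and Tnmd was at 708 CPM against 2.65 CPM in the other members.

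The libraries held the clusters in different shares. Clusters 1 to 5 made up 44.6%, 18.0%, 24.3%, 7.66% and 5.41% of members in WT GFP+ and 34.8%, 30.7%, 15.2%, 14.0% and 5.28% in Sod1KO GFP+. In Sod1KO GFP- they made up 26.9%, 16.1%, 17.2%, 36.6% and 3.23%, so cluster 4 was the most frequent there. A ratio between libraries over all members therefore holds both the mix of clusters and the levels within them.

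The panel genes were spread unevenly over the clusters. Rbp4 was at 2668 CPM in cluster 3 and 2613 in cluster 4, at 1192 in cluster 2, at 429 in cluster 1 and at 297 in cluster 5. Sfrp4 ran the other way, at 1450 CPM in cluster 1 and 1766 in cluster 5, and at 287, 321 and 71.9 CPM in clusters 2, 3 and 4. Inmt was at 998 and 970 CPM in clusters 1 and 3 and at 108 to 279 CPM in the others. Gdf10 was more even, between 866 and 1305 CPM in clusters 1 to 4, and at 132 CPM in cluster 5. High Rbp4 and high Sfrp4 were thus found in different clusters of members. Cluster 3 held a median of 1141 UMIs per cell, and the rule asked for at least 3 panel genes in each. Rule and depth thus enter its panel levels, and Inmt, Gdf10, C7, Osr1 and Cpz were also higher there than in the other members. The part of rule and depth was not tested.

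**Figure D3:**
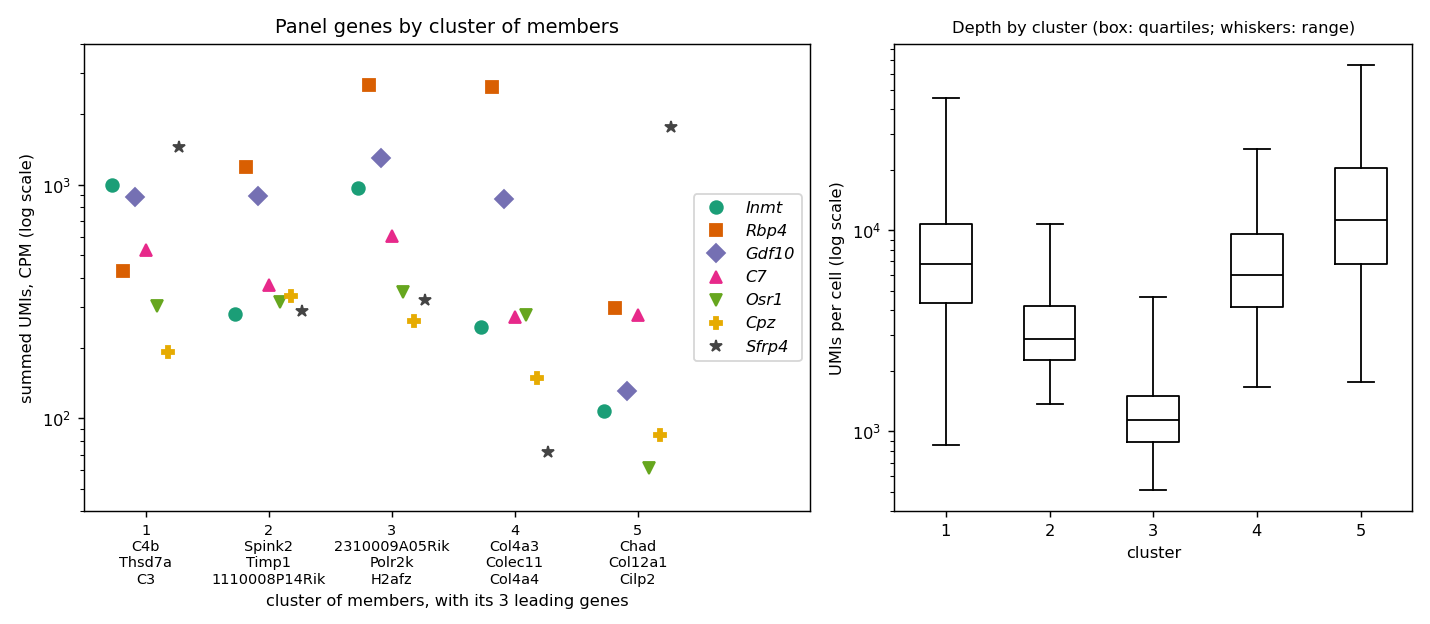
Levels of the 7 panel genes in the 5 clusters of members (CPM) on a log axis, and the depth of the clusters (UMIs per cell, log axis, boxes for quartiles and whiskers for the range). Rbp4 is highest in clusters 3 and 4, Sfrp4 in clusters 1 and 5, and cluster 3 is the shallowest at a median of 1141 UMIs.

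The comparison of genotypes asked what differed in these cells between WT mice and mice labelled Sod1KO, in which nerve terminals are lost and regained. In the GFP+ sort, with 222 and 322 members, few genes differed by 2-fold. Of 6120 genes measured (at least 20 CPM and 10 UMIs in at least 1 of the libraries compared), 118 (1.93%) were 2-fold or more higher and 74 (1.21%) were 2-fold or more lower in the library labelled Sod1KO. Under scaling by the median of ratios, which moved all log2 ratios by -0.09, 95 were higher and 94 lower. Members with markers of mural or Schwann cells were more frequent in the library labelled Sod1KO, as given above, the summed level of the 6 tenocyte markers was 1877 CPM in WT and 973 CPM in Sod1KO, and with the cells carrying markers of another type left out the counts were 114 and 52. Genes were named if they were furthest from 0 in the same direction in both sorts, or if they belonged to a list, and the GFP- values rest on 6 WT cells throughout.

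Col14a1, a fibril-associated collagen, was higher in members of the library labelled Sod1KO. It held 248 UMIs or 187 CPM in WT GFP+ and 887 UMIs or 443 CPM in Sod1KO GFP+, a log2 ratio of 1.25 (1.04 to 1.46). All other cells of these libraries together stood at 0.31. In GFP- it was at 51.1 CPM (3 UMIs) in WT and 472 CPM in the library labelled Sod1KO. The ratio had the same sign in each of the 5 clusters, at 1.24, 0.88, 1.34, 1.41 and 0.38. The interval of cluster 5 (-0.67 to 1.46) includes 0. Over all members the ratio stayed 2-fold or more under 21 of 23 alternatives. None of the other 18 collagens measured differed by 2-fold in GFP+, beside 1.93% higher and 1.21% lower over all genes.

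Several genes of membrane and signaling proteins were higher in the same direction. Csmd1, a membrane protein with complement control domains, was at 144 CPM in WT GFP+ and 328 CPM in Sod1KO GFP+, a log2 ratio of 1.19 (0.96 to 1.43), with 0.29 in the other cells. Gab2, an adaptor of receptor tyrosine kinases, was at 47.4 and 113 CPM, a log2 ratio of 1.25 (0.84 to 1.68). Dmd, the dystrophin gene, was at 33.1 and 84.5 CPM, a log2 ratio of 1.35 (0.87 to 1.86), against -0.32 in the other cells. Slc7a2, a carrier of cationic amino acids, was at 12.8 and 30.0 CPM, a log2 ratio of 1.23 (0.43 to 2.10), and stayed 2-fold under 22 of 23 alternatives. Its ratio in the other cells was -0.82. Sh3rf3 (2.19), Xaf1 (1.52), Colec11 (1.34), Zfpm2 (1.03) and Arfgef1 (1.02) completed the 10 genes named as higher in both sorts. In GFP-, Sh3rf3 and Xaf1 each lay the other way under 6 of 17 alternatives and Colec11 under 3 of 20. Slc7a2 and Dmd did so under 1 of 21 each, and Arfgef1 held 1 UMI in WT GFP-. A single cell held 49 of the 201 Arfgef1 UMIs of Sod1KO GFP+. Colec11, Zfpm2 and Dmd lead cluster 4, which had the greater share in Sod1KO GFP+. Within that cluster the log2 ratio was 0.57 (-0.34 to 1.58) for Colec11 and 0.49 (-0.08 to 1.08) for Zfpm2, both with intervals that include 0, and 2.62 (1.44 to 4.11) for Dmd. Of genes that span more than 100 kb, to which Col14a1, Csmd1, Dmd, Gab2, Sh3rf3 and Zfpm2 belong, 3.08% were 2-fold higher and 1.81% lower, and of shorter genes 1.66% and 1.08%.

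Of 18 interferon and MHC class I genes measured, 4 were 2-fold higher and 0 lower in GFP+. Over all genes measured there, 1.93% were higher and 1.21% lower. The median log2 ratio of the list was 0.26, against 0.06 over all genes. The 4 higher genes were Isg15, an interferon-induced ubiquitin-like protein, Ifi27l2a, Ifit3 and the guanylate-binding protein Gbp2. Isg15 was at 47.4 CPM in WT and 128 CPM in the library labelled Sod1KO, a log2 ratio of 1.43 (1.03 to 1.85), and in the other cells of these libraries its ratio was -0.24. It was detected in 43 members of WT GFP+ and 85 of Sod1KO GFP+. Ifi27l2a was at 50.4 and 158 CPM, a log2 ratio of 1.65 (1.27 to 2.06), but without the excluding lists its ratio was -0.18. Ifit3 (13 and 52 UMIs) had a log2 ratio of 1.41 (0.51 to 2.41) and stayed 2-fold under all 23 alternatives. Xaf1, which is also induced by interferon, was at 9.78 and 28.0 CPM. In GFP- the list lay the other way. With the 6 cells on the WT side, 0 of 15 genes measured were 2-fold higher and 8 lower, beside 15.4% and 11.1% over all genes, and the median log2 ratio was -1.03 against 0.13. The GFP- values of Isg15 and Ifi27l2a are given in the closing section.

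Fewer genes were lower than higher, and some of them rested on single cells. Igfbp3, a carrier of insulin-like growth factors, was at 129 CPM in WT GFP+ and 58.5 CPM in Sod1KO GFP+, a log2 ratio of -1.15 (-1.50 to -0.80), against -0.08 in the other cells. In GFP- it was at 290 CPM in WT and 47.6 CPM in the library labelled Sod1KO. It was lower under each of 23 alternatives and 2-fold lower under 19. Within clusters 1 and 5 its log2 ratio was -0.93 (-1.32 to -0.54) and -0.96 (-1.93 to -0.05), short of 2-fold. In cluster 2 it was -1.57 (-3.91 to 0.64) on 5 and 4 UMIs. Sik1, a salt-inducible kinase, was at 54.2 and 26.0 CPM in GFP+, a log2 ratio of -1.06 (-1.60 to -0.52), and its ratio in the other cells was -0.90. Dyrk2, a kinase, held 35 and 20 UMIs, a log2 ratio of -1.40 (-2.27 to -0.56). Cdkn1c, a cell cycle inhibitor, was at 308 and 116 CPM, a log2 ratio of -1.40 (-1.64 to -1.17), and 158 of its 409 WT UMIs came from 1 cell, without which the ratio was -0.93. Thbs4 (-1.50) is a gene of tendon, and it and Ecrg4 (-1.08) lead cluster 5. In the WT GFP+ library 1 cell held 204 of the 398 Thbs4 UMIs, and without cells carrying markers of another type its ratio was 1.64. Aqp1 (-2.37), a water channel, and Myoc (-1.03) completed the named genes past 2-fold, and both lay the other way under some alternatives. Cluster 5, in which most cells held tenocyte markers, supplied 52 of the 55 Aqp1 UMIs, 52 of the 80 Myoc UMIs and 329 of the 409 Cdkn1c UMIs of WT GFP+ members. The part of the tenocyte markers in these ratios was not tested. Ifi205 (-0.83), Gm8797 (-0.88) and 2200002D01Rik (-0.87) were named by the same rule and did not reach 2-fold.

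**Figure D4:**
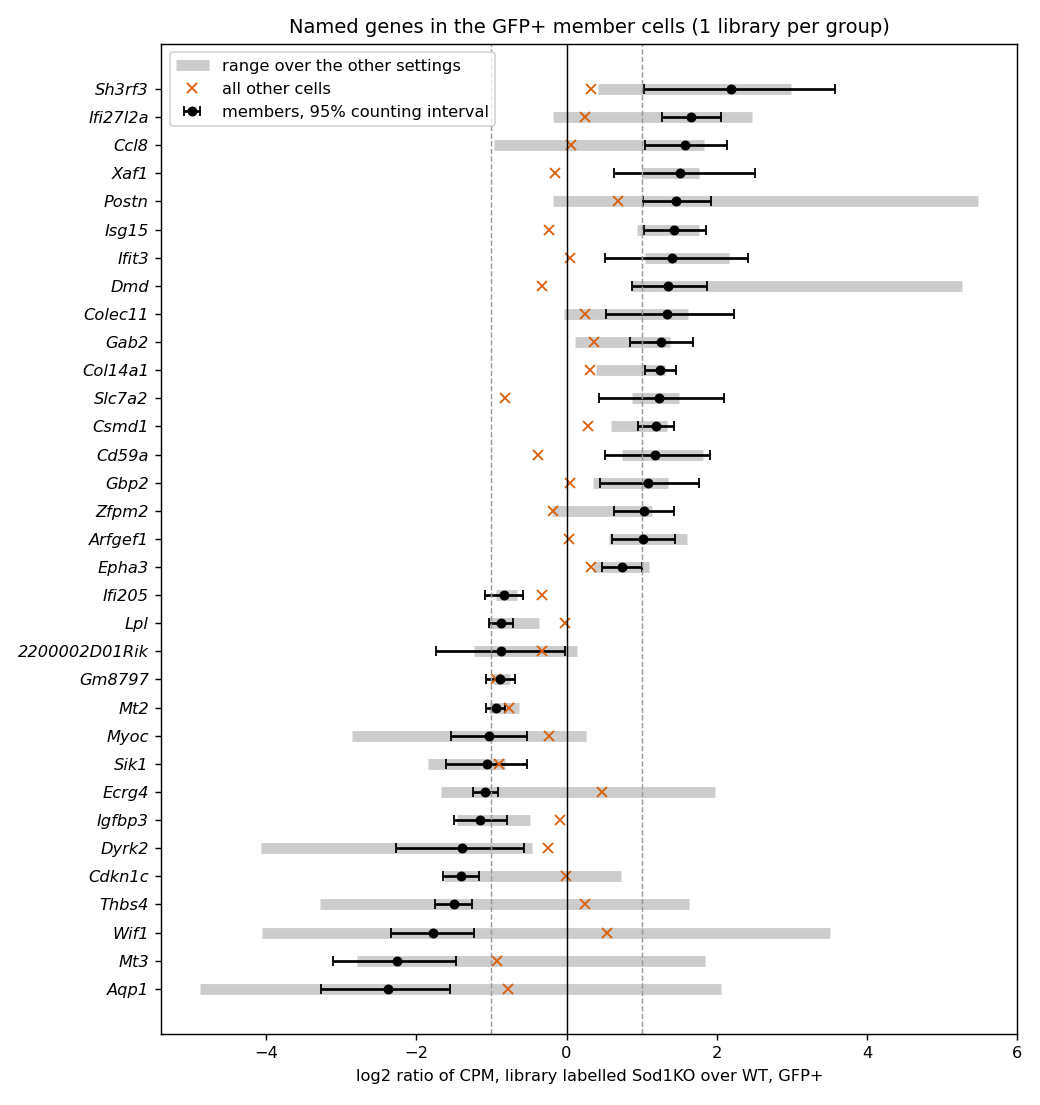
Log2 ratio between the GFP+ libraries (labelled Sod1KO over WT) in members, for named genes, with 95% counting intervals as bars, the range over the other settings in grey and crosses for all other cells of the same libraries. Col14a1, at 1.25 in members, is at 0.31 in the other cells, while Sik1 is at -1.06 and -0.90.

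Among antioxidant genes, Mt2, a metallothionein, was at 893 CPM in WT GFP+ and 465 in Sod1KO GFP+, a log2 ratio of -0.94 (-1.07 to -0.82) that did not reach 2-fold, and the other cells stood at -0.77. Its ratio within clusters ran from -1.42 to -0.12 and was below 0 in each, with intervals that include 0 in clusters 2 and 3. Mt3 was the only one of 31 measured to pass 2-fold, with 57 and 18 UMIs in 9 cells of each library, and its log2 ratio turned from -2.25 to 0.31 with doublets removed and to 1.84 with fewer than 2 genes of each excluding list allowed. Epha3, an ephrin receptor, was at 122 and 203 CPM, a log2 ratio of 0.74 (0.47 to 1.01) with 0.32 in the other cells. Its ratio was above 0 in each of the 5 clusters, without reaching 2-fold over all members. The intervals of clusters 2, 3 and 5 include 0.

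Other list genes past 2-fold in GFP+ were few and rested on few cells. Postn, a matrix protein of repair, was at 39.9 and 110 CPM, in 4 members of WT and 32 of the library labelled Sod1KO. The chemokine Ccl8 was at 27.1 and 80.5 CPM, but 1 cell held 128 of its 161 UMIs, and without the cell with most UMIs the ratio was -0.49. Cd59a, an inhibitor of the membrane attack complex, was at 18.1 and 41.0 CPM, a log2 ratio of 1.18 (0.51 to 1.90). Wif1, a Wnt inhibitor that is among the leading genes of cluster 5, was at 70.0 and 20.5 CPM, in 8 and 11 cells, and lay the other way under 5 of 23 alternatives. The 17 pan-fibroblast genes, 28 BMP and TGF-beta genes, 23 proteases and inhibitors, 23 immediate early and heat shock genes, 12 circadian genes and 12 glucocorticoid-responsive genes measured had 0 members past 2-fold in either direction. Over all genes measured, 1.93% were higher and 1.21% lower, so a count of 0 in lists of this size lies close to that share. The median log2 ratios of the glucocorticoid-responsive genes and of the limb transcription factors were -0.38 and -0.26, against 0.06 over all genes.

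**Figure D5:**
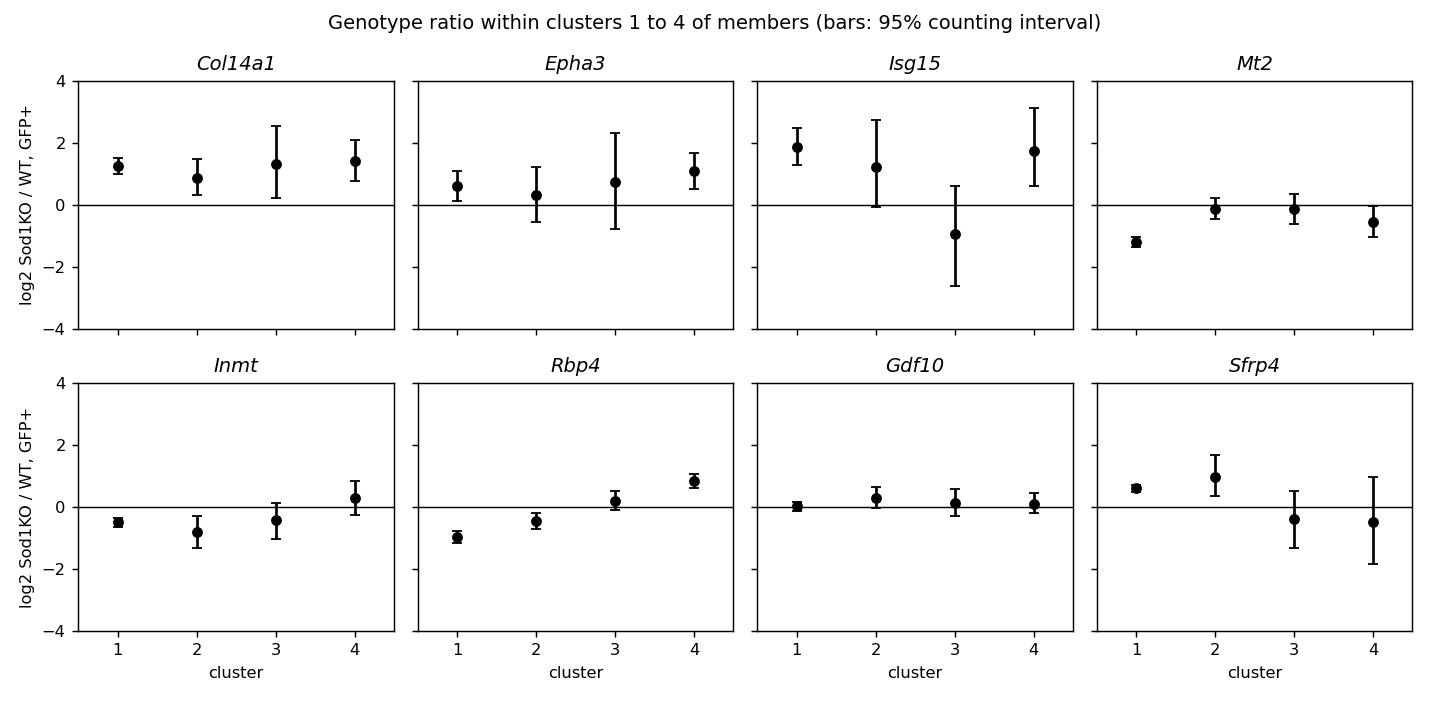
Log2 ratio between the GFP+ libraries (labelled Sod1KO over WT) within clusters 1 to 4 of members, for 8 of the genes described, with 95% counting intervals. Col14a1 and Epha3 are above 0 in all 4 clusters shown, while Rbp4 runs from -0.97 in cluster 1 to 0.84 in cluster 4. The Epha3 intervals of clusters 2 and 3 include 0.

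Rbp4 showed that a ratio near 0 over all members can hold different values inside. Over members of the GFP+ sort it was 847 and 917 CPM, while within clusters its log2 ratio was -0.97, -0.46, 0.21, 0.84 and -0.60 for clusters 1 to 5. The interval of cluster 3 (-0.11 to 0.52) includes 0. Sfrp4 was at 0.61 and 0.98 in clusters 1 and 2. It was at -0.38 (-1.32 to 0.53), -0.48 (-1.83 to 0.98) and -0.71 (-0.95 to -0.48) in clusters 3, 4 and 5. Inmt was below 0 in clusters 1 to 3, at -0.50, -0.81 and -0.44, and above 0 in clusters 4 and 5. Its intervals in clusters 3, 4 and 5 include 0. The clusters were made from the same counts, so these splits are a description.

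In the GFP- sort the WT side was 6 cells, and 785 of 5111 genes (15.4%) were 2-fold or more higher and 568 (11.1%) lower in the library labelled Sod1KO. Scaling by the median of ratios moved all log2 ratios by 0.16 against CPM and gave 1001 higher and 453 lower. Those cells held 3.27% of their UMIs in hemoglobin genes, against 0.00173%, 0.00115% and 0.00659% in members of the other libraries, and the endothelial gene Fabp4 stood at 2879 CPM in them. Of 4814 genes measured in both sorts, 11 (0.229%) were 2-fold higher and 7 (0.145%) 2-fold lower in both. Within GFP+ the shares were 1.93% and 1.21%. Whether more genes fell in both than unrelated sorts would give was not tested. The sorts share their pools of mice, so a gene found in both is no independent repeat. Between the sorts of WT, with the same 6 cells on the GFP- side, 689 of 4992 genes (13.8%) were 2-fold or more higher in GFP+ and 561 (11.2%) lower, and no gene is named from it.

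Members of the library labelled Sod1KO could also be compared between sorts, with 322 GFP+ and 93 GFP- cells of the same mice. Of 6367 genes measured, 259 (4.07%) were 2-fold or more higher and 155 (2.43%) lower in GFP+. This balance turned under other choices of cells, since choosing them after thinning to 2000 UMIs gave 153 higher and 276 lower, and leaving out cells with markers of another type gave 229 higher and 255 lower. The sorts also differed in the mix of clusters given above. Apoe was at 1804 CPM (3608 UMIs) in GFP+ and 617 CPM (337 UMIs) in GFP-, a log2 ratio of GFP+ over GFP- of 1.55 (1.39 to 1.71), and it was detected in 272 and 53 cells. C3, the central complement component, was at 361 and 102 CPM, a log2 ratio of 1.82 (1.42 to 2.24), and within cluster 1, which it leads and which was more frequent in GFP+, at 614 and 270 CPM, a log2 ratio of 1.18 (0.77 to 1.62). Apoe was higher in GFP+ within each of the 5 clusters, at 0.55 to 3.54. The top value, in cluster 5, rests on 2 GFP- UMIs (1.66 to 6.60). Chrdl1, a BMP antagonist, was at 210 and 84.2 CPM, a log2 ratio of 1.32 (0.88 to 1.79), and at 1.58 (0.88 to 2.38) within cluster 1. All 3 genes were higher in GFP+ in the other cells of the same libraries too, at 1.15, 1.02 and 1.56.

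Fgfr2, a fibroblast growth factor receptor, was at 114 CPM in GFP+ and 36.6 CPM in GFP-, a log2 ratio of 1.64 (0.98 to 2.38), against 0.18 in the other cells. A single GFP+ cell held 52 of its 228 UMIs, cluster 5 held 127 of them, and within cluster 1 the ratio was 0.78 (-0.34 to 2.15). Mfap4, a microfibril protein, went the other way, at 620 and 1350 CPM, a log2 ratio of -1.12 (-1.25 to -0.99), while the other cells stood at 1.25. Within cluster 4, where it was highest, the Mfap4 ratio was -0.56 (-0.74 to -0.38). Zfp423, a regulator of adipocyte precursors, was at 17.5 and 54.9 CPM, a log2 ratio of -1.65 (-2.39 to -0.90), against -0.33 in the other cells. For Fgfr2, Mfap4 and Zfp423 the ratio in members thus differed from that of the other cells, which are of many types. The summed level of the 6 Schwann markers was 296 CPM in GFP+ members and 49.4 CPM in GFP- members. Sfrp2 had 379 of its 387 GFP- UMIs in 1 cell and Fabp4 177 of its 264, so their lower levels in GFP+ rest on those cells.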

How the data were processed

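The authors made the deposited values, whole-number UMI counts per gene and cell, with Cell Ranger and its cell calling. The file headers and the submitters' notes name version 7.1.0 and the notes name mm10, and the study's methods give another version and name both GRCm39 and GRCm38. Ambient RNA and doublets were removed by the authors downstream of the deposited counts, which still hold both.

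Members, lists and alternatives were chosen with earlier results of these data known. Counts were summed over the members of a library and given as CPM. Intervals are exact Poisson, Clopper-Pearson or conditional binomial intervals (Newcombe for differences of shares). Log2 ratios carry no pseudocount, and a sum of 0 was set to 3 UMIs. A gene needed 20 CPM and 10 UMIs in 1 of the libraries compared, and called means 2-fold. The named genes were the panel and list genes, for genotype the 10 in each direction with the largest smaller ratio over both sorts, and against the Myoc and Pi16 groups the 10 in each direction with the largest smallest ratio. A few more, such as the leading genes of clusters and Fabp4, were named after their values were seen. A few named genes are not reported here.

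Members were clustered on 1000 variable genes with 15 components and 15 neighbours (Leiden, resolution 0.6). Doublets were scored with 50 neighbours at 0.8% per 1000 cells, which called 210, 366, 27 and 287 cells. The ratio code was tested on simulated data. The tools were matplotlib 3.10.9, leidenalg 0.10.2, igraph 0.11.9, scikit-learn 1.9.0, pandas 2.3.3, scipy 1.17.1, numpy 2.4.6 and Python 3.11.15. All sample columns were mapped. Values are from 1 library per group, and no test across samples was made.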

Additional observations from a re-analysis of the deposited data

Results flagged for a closer look

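Interferon genes lay in opposite directions in the sorts. Of the interferon and MHC class I list, 4 of 18 genes measured were 2-fold higher and 0 lower in GFP+. Over all genes measured there, 1.93% were higher and 1.21% lower. In GFP-, 0 of 15 list genes were higher and 8 lower, beside 15.4% and 11.1% over all genes. The median log2 ratios of the list were 0.26 in GFP+ and -1.03 in GFP-. In members, the library labelled Sod1KO stood to WT at a log2 ratio of 1.43 for Isg15 in GFP+ and -1.79 in GFP-, where WT members held 13 UMIs (221 CPM) and members of the library labelled Sod1KO held 35 UMIs (64.0 CPM). For Ifi27l2a it was 1.65 in GFP+ and -2.01 in GFP-, with 23 UMIs (392 CPM) and 53 UMIs (97.0 CPM) on the GFP- sides. The WT side of the GFP- ratio is 6 cells for both genes, 1 library stands on each side, and the difference between the sorts was not tested. With both sorts of a genotype summed, the ratios were 1.06 and 1.16.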

How the results depend on the processing

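No paired analysis was possible because each group held 1 library. Of 1417 single-gene and panel-cell values recomputed under alternatives, 59 changed sign, of which 53 had been 2-fold or more, and of 176 values of shares, counts and panel levels, 35 moved past their counting interval or by over 1.5 times and 5 changed sign. These 5 were Rbp4 in both sorts and Osr1 (-0.17) in GFP- in cells chosen by the other 6 panel genes, and the GFP+ share difference, at -0.072 points with over 500 genes and under 5% mitochondrial UMIs and at -0.051 points without cells carrying markers of another type. Values from WT GFP- are limited by its 6 members, and values of the other libraries by the depth of members. The cause of the changes was not tested. Leaving out the cell with most UMIs, leaving out WT GFP-, and thinning or leaving out cells with markers of another type for the sorts and for members against both groups were added after seeing the data.

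With fewer than 2 genes of each excluding list allowed, 531 genes were 2-fold higher and 168 lower in GFP+, 26 and 358 in GFP-, the GFP- share difference was 0.750 points, and the GFP+ log2 ratios were 1.97 for Ecrg4, 2.06 for Aqp1, -0.035 for Colec11, -0.97 for Ccl8, 0.73 for Cdkn1c, 1.84 for Mt3 and 3.5 for Wif1. With no exclusion, 68 genes were higher in GFP+, the GFP- share difference was 2.13 points, and the ratios were -0.19 for Zfpm2, -0.18 for Ifi27l2a and -0.18 for Postn in GFP+, and -0.091 for Sh3rf3 and -0.23 for Xaf1 in GFP-. With the rule applied after thinning to 2000 UMIs, the GFP+ ratios were 0.66 for Ecrg4, 0.64 for Aqp1, 0.50 for Thbs4, -0.062 for Postn, 0.19 for Cdkn1c and 1.79 for Wif1, the GFP- ratios were -0.85 for Sh3rf3 and 0.075 for Isg15, the sorts of the library labelled Sod1KO gave 153 higher and 276 lower, and members against both groups gave 12 higher and 5 lower.

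With at least 4 panel genes, Myoc (0.13) and Wif1 (0.36) turned in GFP+, and 368 genes were higher in GFP-. With the panel at 0.2% of UMIs, 401 were higher in GFP-, with Sh3rf3 at -0.25, Xaf1 at -0.058, Thbs4 at 0.38 and Ifi27l2a at 1.07. Choosing without Rbp4 gave 370 higher in GFP- and 0.26 for Myoc in GFP+. Choosing without C7 gave 0.15 for Myoc and 0.52 for Wif1 in GFP+. Choosing without Sfrp4 gave 0.78 for Aqp1 in GFP+ and, in GFP-, 421 higher, -0.080 for Xaf1 and 1.5 for Ifi27l2a. In cells chosen by the other 6 panel genes, Rbp4 turned from 0.11 to -0.081 in GFP+ and from 0.74 to -0.52 in GFP-, and Sfrp4 at 0.36 and 2.22.

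With doublets removed, Ccl8 was at -0.68 and Mt3 at 0.31 in GFP+, and without the cell with most UMIs Ccl8 was at -0.49. With cells carrying markers of another type left out, the GFP+ difference among stromal groups was -11.8 points, Thbs4 (1.64), Ccl8 (-0.71) and Wif1 (0.37) turned in GFP+, and Sh3rf3 (-0.33), Xaf1 (-0.12), Colec11 (-0.33) and Ifi27l2a (1.62) in GFP-, where 394 genes were higher. It gave 255 lower between the sorts of the library labelled Sod1KO, and 32 higher and 35 lower against both groups. Without WT GFP-, these were 72 and 94.

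With the mean of per-cell CPM, 218 genes were higher in GFP+ and 1222 in GFP-, Aqp1 was at 0.31 in GFP+, and Sh3rf3 was at -0.93, Xaf1 at -0.28, Colec11 at -2.06 and Dmd at -0.31 in GFP-. With no minimum level, 1127 were higher and 592 lower in GFP+ and 1362 lower in GFP-. With sums under 3 UMIs set to 3, 276 were higher and 1012 lower in GFP-, with Slc7a2 at -0.16, Sh3rf3 at -0.41, Xaf1 at -0.48 and Colec11 at -0.16. With both sorts of a genotype summed, 106 were higher and 79 lower, with Isg15 at 1.06 and Ifi27l2a at 1.16.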
